A study of Mus musculus with 8 samples.

Results

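Resident macrophages of the bone marrow (BM) engulf the nuclei of maturing erythroblasts and senescent red cells and hand the recovered iron back to the blood. Known for these cells are the 10 genes followed here in whole BM of a mouse model of leukemia. They are C1qa, C1qb and C1qc (the chains of complement C1q), Adgre1 and Siglec1 (surface receptors of macrophages) and Vcam1 (an adhesion molecule). The others are Cd5l (a secreted survival protein), Spic (a transcription factor), Hmox1 (heme oxygenase) and Slc40a1 (the iron exporter ferroportin). The 10 genes were chosen by name, with earlier results of these data known, and all 10 were listed in the table of 13305 genes. RNA was sequenced from 8 mice, 1 library each. All mice were C57BL/6N with Mx1-Cre, 1 inactive Dnmt3a allele (Dnmt3a+/-) and the Flt3-ITD allele on both chromosomes (Flt3ITD/ITD). This combination gives acute myeloid leukemia (AML), so that the AML WT controls were leukemic. The groups were 3 AML WT mice (Gab2+/+), 2 AML HET mice (Gab2+/-) and 3 AML KO mice (Gab2-/-), which have 2, 1 and 0 intact alleles of the signaling adaptor Gab2. Per the study, the disease was strongly attenuated in AML KO mice, with hardly any blasts in the blood, and intermediate in AML HET mice. It also found a smaller share of granulocyte-monocyte progenitors and a larger one of megakaryocyte-erythroid progenitors in AML KO than in AML WT BM. Mx1-Cre is driven by an interferon-responsive promoter, and, per the study, it recombined without an inducing injection. The Gab2 knockout allele carries a resistance cassette in place of part of the exons, so that reads on the rest of the gene can still be counted. Which exons the Gab2 counts came from was not tested. The ages of the sequenced mice are not in the labels, and healthy BM was not analysed here.

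In an erythroblastic island, a central macrophage binds erythroblasts through adhesion molecules such as Vcam1, which pairs with integrin alpha 4 beta 1 on the erythroblast. Heme from engulfed cells releases Spic from repression by Bach1, and Spic in turn favors Vcam1 and Slc40a1 in iron-recycling macrophages. Hmox1 opens the heme ring and frees its iron, which ferritin stores or Slc40a1 exports. The C1q chains, by contrast, are broad products of tissue macrophages and mark no single niche. Siglec1, which binds sialylated glycans, is induced by type I interferon, and Adgre1 is also carried by monocytes and eosinophils.

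The levels of the 10 genes per mouse were between 0.2705 CPM (counts scaled to library size with the TMM method of edgeR) for Cd5l and 180.2 CPM for Adgre1. Each library had 28009258 to 39266815 counts, so that Cd5l rested on 8 to 70 counts per mouse and Spic on 45 to 105. None of the 10 was at 0 in a mouse. Gab2 itself fell by 0.87 on the log2 scale from AML WT to AML KO BM (standard error 0.18, adjusted p = 0.042 by the quasi-likelihood test of edgeR and Benjamini-Hochberg adjustment over all genes), a call that held only without AML WT replicate 3 or AML KO replicate 2 when 1 mouse was left out. One mouse stood apart for macrophage genes: AML KO replicate 2 had the highest level of the 8 mice for 7 of the 10 genes, for 11 of 21 other macrophage genes and for 10 of 13 genes of stroma and endothelium, while it was the highest mouse for 11.9% of all genes.

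Set per kilobase of the longest coding transcript, the order of the genes in AML WT BM began with Adgre1, at 40.9 ± 13.1 CPM per kilobase (SD, n = 3). Hmox1 followed with 18.7 ± 1.23. The C1q chains came next and were not separated from each other, with 7.86 ± 0.929 for C1qb, 6.63 ± 1.09 for C1qa and 6.32 ± 1.17 CPM per kilobase for C1qc. Vcam1 (3.42 ± 0.35) and Slc40a1 (3.19 ± 0.695) had like levels per length. Siglec1 had 1.65 ± 1.51 and overlapped both Slc40a1 above and Spic below it, which was at 0.847 ± 0.229. The lowest level per length, 0.182 ± 0.0426, was that of Cd5l.

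The loss of both Gab2 alleles came with a difference in 3 of the 10 genes at an adjusted p under 0.05 (AML KO against AML WT): Vcam1, Cd5l and Slc40a1 were all higher in AML KO BM. Over all genes, 2.09% passed this threshold, and 1.77% passed it with a higher level in AML KO. Since the 10 were chosen with earlier results of these data known, their counts beside the shares of all genes are no test of an excess. An unadjusted p under 0.05 was found for 6 of the 10 genes, 4 higher and 2 lower, and for 17.7% of all genes. The ranges of the 3 AML KO and the 3 AML WT mice did not overlap for 5 of the 10, with 4 higher and 1 lower, against 22.1% of all genes. The median log2 fold change was 0.31 for the 10 genes and -0.02 for all genes. Without AML KO replicate 2 the median of the 10 was -0.03, and the 3 genes that passed were Slc40a1 and Vcam1, both higher, and Adgre1, which was lower. None of the 10 passed when AML WT replicate 1 or 2 was left out, and 1 passed without AML WT replicate 3 or AML KO replicate 3. In whole BM, fewer cells of a type and less RNA per cell cannot be told apart.

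**Figure D1:**
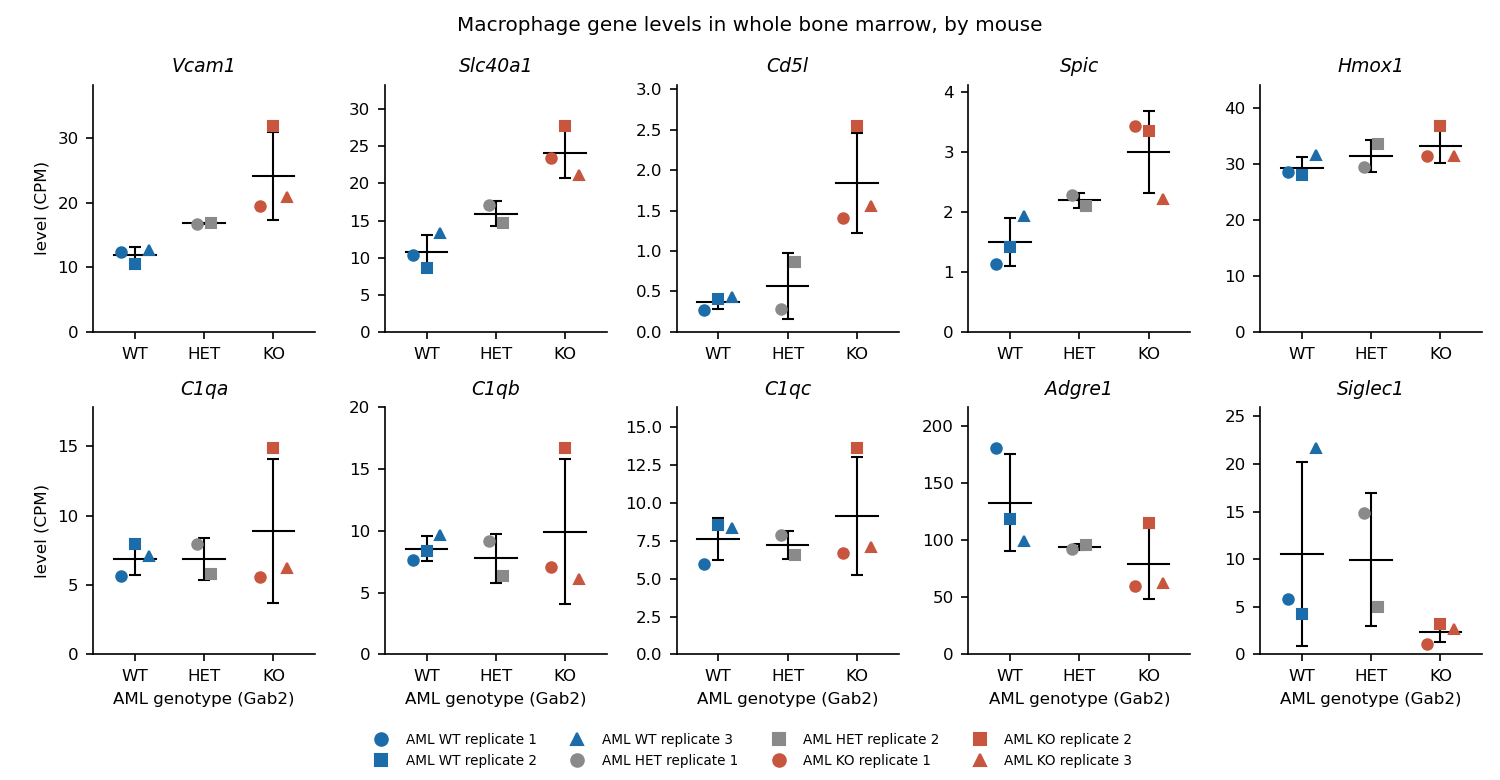
Level (CPM) of each of the 10 macrophage genes in 3 AML WT mice, 2 AML HET mice and 3 AML KO mice, with 1 point per mouse, the group mean (long bar) and SD (error bar). Vcam1, Slc40a1 and Cd5l lie higher in every AML KO mouse than in every AML WT mouse, the C1q chains are high in AML KO replicate 2 alone, and Siglec1 is highest in AML WT replicate 3.

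Slc40a1, which carries iron out of cells such as the macrophage and is the one known cellular exporter of it, had the smallest p of the 10 genes. Which cells of the whole BM its RNA came from was not tested. Slc40a1 lies at chr1:45908068-45926523 of the genome build GRCm38. Its level was 10.3, 8.63 and 13.3 CPM in AML WT, 17.1 and 14.7 CPM in AML HET and 23.4, 27.8 and 21.2 CPM in AML KO mice. The 3 groups did not overlap in any pair, and AML HET lay between the others. The level was 2.24-fold higher in AML KO than in AML WT BM, or 1.17 on the log2 scale (standard error 0.191, 95% interval 0.74 to 1.60, adjusted p = 0.0163, edgeR). Leaving out any 1 of the 8 mice gave a log2 fold change of 1.03 to 1.35. In 2 of these fits it did not pass, with an adjusted p of 0.0506 without AML WT replicate 1 and 0.0845 without AML WT replicate 2.

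Vcam1, at chr3:116109949-116129688, holds erythroblasts to the macrophage and is also made by stromal and endothelial cells. An unlisted antisense gene, Gm43109, overlaps it, and whether the counting used strand is not stated. Vcam1 was at 12.4, 10.5 and 12.8 CPM in AML WT and at 16.8 and 16.8 CPM in AML HET mice. In AML KO mice it was at 19.5, 32 and 20.9 CPM. Here too the groups did not overlap, and the 2 AML HET mice lay in between. The level was 2.03-fold higher in AML KO than in AML WT BM, or 1.02 on the log2 scale (standard error 0.201, 95% interval 0.57 to 1.47, adjusted p = 0.0344, edgeR). Without AML KO replicate 2, the highest mouse, the log2 fold change was 0.76 with an adjusted p of 0.0408. Leaving out a mouse lost the call in 6 of 8 fits, all but those without AML KO replicate 1 or 2, and the adjusted p reached 0.15 without AML WT replicate 2. It was 0.0707 when the AML HET mice were left out of the fit.

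Of the markers of stroma and endothelium, 13 of 13 were in the table and none was called between AML KO and AML WT, with a median log2 fold change of 0.20 that was -0.29 without AML KO replicate 2. Their summed level was 765.5 to 1308 CPM in AML WT, 690.7 to 757 CPM in AML HET and 496 to 804.3 CPM in AML KO mice. In every mouse most of that sum came from Col1a1 and Col1a2. By gene, 8 of the 13 had a higher and 5 a lower fitted level in AML KO than in AML WT, and none was at 0 in a mouse. The collagens Col1a1 and Col1a2, the main fibers of bone, had log2 fold changes of -0.90 and -0.95, and Pdgfrb, a receptor of perivascular cells, one of 0.51, none of which passed the threshold (adjusted p = 0.161, 0.131 and 0.218, edgeR). Col1a1 was at -0.55 without AML WT replicate 2 and Pdgfrb at 0.32 without AML KO replicate 2. The part of these cells in the level of Vcam1 was not tested.

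Cd5l, a protein that macrophages secrete and that slows their death, lies at chr3:87357881-87371073. It was counted 11, 13 and 14 times in AML WT, 8 and 27 times in AML HET and 43, 70 and 53 times in AML KO mice. In CPM these were 0.271, 0.411 and 0.429 in AML WT, 0.281 and 0.86 in AML HET and 1.41, 2.55 and 1.56 in AML KO mice. All AML KO mice lay above all others, while the 2 AML HET mice differed from each other, one within the range of AML WT and one above it. By counting error alone (exact Poisson, 95%), the highest AML WT count allowed 7.65 to 23.5 and the lowest AML KO count 31.1 to 57.9, so that these intervals did not meet. The level was 4.96-fold higher in AML KO than in AML WT BM, or 2.31 on the log2 scale (standard error 0.47, 95% interval 1.26 to 3.36, adjusted p = 0.0387, edgeR). With 1 mouse left out, the log2 fold change was 2.00 to 2.47, and the call was lost in 6 of 8 fits, all but those without an AML HET mouse, with an adjusted p of 0.0685 without AML KO replicate 2 and up to 0.134 without AML WT replicate 2.

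Spic, at chr10:88674772-88685015, is the transcription factor that heme induces and that iron-recycling macrophages need. It was at 1.13, 1.42 and 1.93 CPM in AML WT and at 2.28 and 2.1 CPM in AML HET mice. In AML KO mice it was at 3.43, 3.35 and 2.21 CPM. All AML HET and AML KO mice lay above all AML WT mice, and AML HET and AML KO overlapped. The fitted level in AML KO was 2.01-fold that in AML WT BM (log2 fold change 1.00, standard error 0.302, 95% interval 0.33 to 1.68), and Spic did not pass the threshold (adjusted p = 0.158, edgeR). No alternative fit took it past the threshold, and the nearest, DESeq2, gave an adjusted p of 0.0552.

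Sequence before the start sites was read for the genes with an entry in the RefSeq promoter table (GRCm38.p6), which were 4 of the 10: Cd5l, Spic, C1qb and C1qc. Maf, a transcription factor of macrophages, recognizes the element TGCTGA, and a pair of such elements in opposite directions forms a palindrome. The 250 bases before the start are shown for one gene that rose (Cd5l), one that did not pass (Spic) and one whose groups overlapped (C1qb), 5′ to 3′ on the strand of the gene, with TGCTGA or its reverse complement TCAGCA in capitals.
Cd5l, chr3:87357631-87357880, plus strand: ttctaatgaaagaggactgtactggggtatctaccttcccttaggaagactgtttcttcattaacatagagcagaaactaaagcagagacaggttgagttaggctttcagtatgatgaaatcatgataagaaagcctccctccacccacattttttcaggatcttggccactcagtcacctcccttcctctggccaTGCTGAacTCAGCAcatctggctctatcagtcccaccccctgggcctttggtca
Spic, chr10:88683024-88683273, minus strand: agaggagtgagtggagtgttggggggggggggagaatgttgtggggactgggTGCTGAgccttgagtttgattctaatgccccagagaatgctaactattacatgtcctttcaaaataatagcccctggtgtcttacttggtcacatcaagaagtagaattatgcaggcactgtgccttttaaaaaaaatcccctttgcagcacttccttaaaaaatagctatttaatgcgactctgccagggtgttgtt
C1qb, chr4:136886201-136886450, minus strand: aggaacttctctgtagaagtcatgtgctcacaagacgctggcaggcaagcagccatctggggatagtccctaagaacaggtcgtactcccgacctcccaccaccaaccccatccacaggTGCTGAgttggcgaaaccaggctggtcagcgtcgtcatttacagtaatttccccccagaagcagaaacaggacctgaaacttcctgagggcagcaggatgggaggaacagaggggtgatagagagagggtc
In Cd5l the elements stand 54 and 46 bases before the start and form TGCTGANNTCAGCA, which holds both elements and is in 2 of 32851 mouse promoters of this length, or 0.00609% (Cd5l and Gm33479, the latter named after the search). Spic has TGCTGA 198 bases and C1qb 131 bases before the start. The start that RefSeq gives Spic was not matched to a transcript of GENCODE M21. Read on both strands, TGCTGA was in 16.1% of the 32851 promoters, and none was found in the window of C1qc. GAGGAA, the core of the site of PU.1 and its relative Spic, was in the windows of C1qb, C1qc and Cd5l and in 23.3% of all promoters. Other spacings of the paired elements were not searched, so that the share of 0.00609% holds only for the spacing in Cd5l. The letters are a description of the windows and no measure of binding.

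Maf itself did not pass the threshold. It was at 3.61, 4.9 and 5.05 CPM in AML WT, at 4.84 and 4.24 CPM in AML HET and at 3.27, 5.09 and 4.63 CPM in AML KO mice. The ranges overlapped, with a log2 fold change of -0.06 in AML KO against AML WT BM (adjusted p = 0.907, edgeR). Maf was singled out after its values were seen.

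Hmox1, which degrades heme, lies at chr8:75093621-75100589. It was at 28.5, 27.9 and 31.5 CPM in AML WT, at 29.4 and 33.5 CPM in AML HET and at 31.4, 36.8 and 31.3 CPM in AML KO mice. The groups overlapped, and the AML KO to AML WT difference of 0.18 on the log2 scale had a 95% interval of -0.11 to 0.47 (adjusted p = 0.454, edgeR). The log2 fold change of Slc40a1, 1.17, lies outside that interval. Within each mouse, the log2 ratio of Slc40a1 to Hmox1 was -1.46, -1.69 and -1.25 in AML WT, -0.78 and -1.18 in AML HET and -0.427, -0.405 and -0.565 in AML KO mice. The 2 genes were thus nearest to each other in AML KO mice, and the groups did not overlap (exact permutation test, AML KO against AML WT, two-sided p = 0.1, the smallest that 3 mice against 3 allow, and 0.16 adjusted over the 8 ratios compared).

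**Figure D2:**
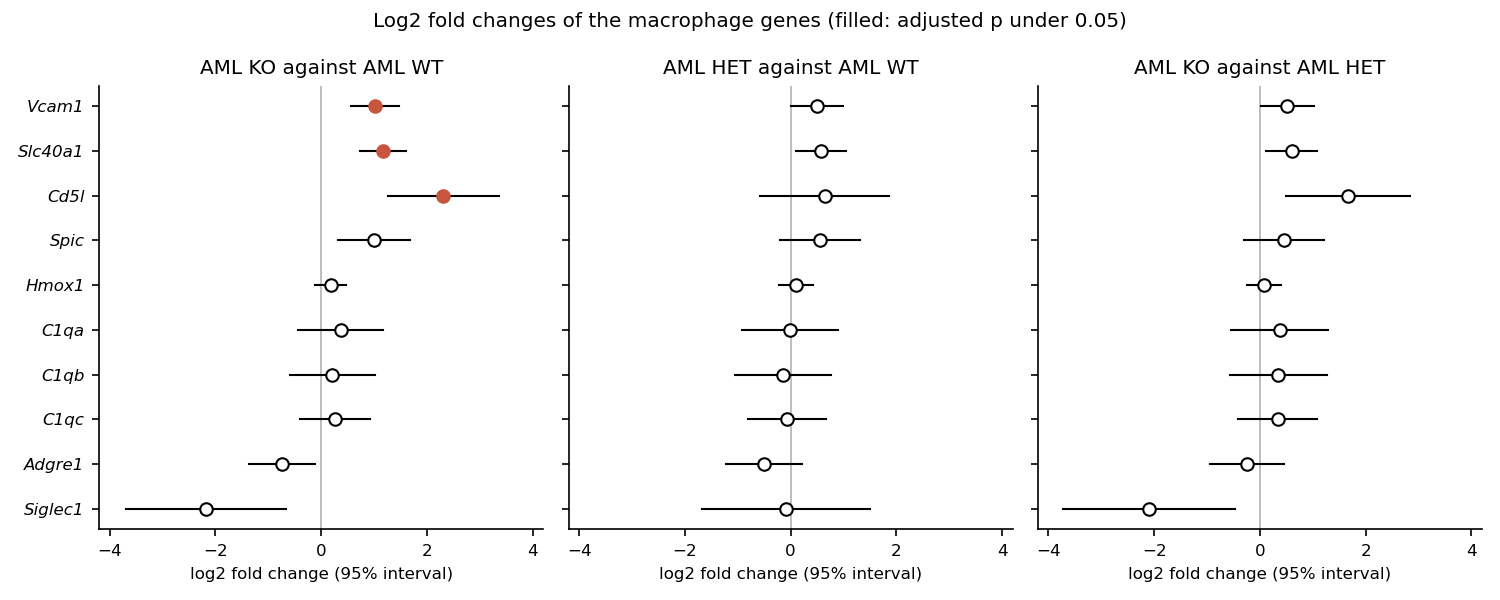
Log2 fold change (x axis) with its 95% interval for each of the 10 macrophage genes in the 3 comparisons, filled where the adjusted p was under 0.05. Vcam1 (1.02), Slc40a1 (1.17) and Cd5l (2.31) are the filled points between AML KO and AML WT, and no point is filled in the other panels.

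The rest of the heme and iron route was read from a list. Of 16 genes fixed for heme breakdown and iron release, 15 were listed in the table, none was called in either direction, 4 had an unadjusted p under 0.05 and the median log2 fold change was -0.01 in AML KO against AML WT BM. Blvrb, a biliverdin reductase that red cell precursors also express strongly, had the smallest p, with 13, 16.3 and 15.9 CPM in AML WT, 16.1 and 30.8 CPM in AML HET and 44.9, 29 and 25.3 CPM in AML KO mice. Its groups did not overlap between AML KO and AML WT, but the log2 fold change of 1.14 did not pass (adjusted p = 0.0781, edgeR). Flvcr1, a heme exporter, and Lrp1, a receptor for heme bound to hemopexin, had log2 fold changes of -0.51 and -0.71 with adjusted p of 0.174 and 0.199. Cd163 (singled out after its values were seen) was at 16.1, 16.2 and 20.8 CPM in AML WT and 10.3, 14.3 and 12.1 CPM in AML KO mice. Its log2 fold change of -0.53 did not pass (adjusted p = 0.208, edgeR). By gene, 6 of the 15 had a higher and 9 a lower fitted level in AML KO than in AML WT. The summed level of the 15 genes, most of it from Ftl1 and Fth1, was 3074 to 3389 CPM in AML WT and 2833 to 3529 CPM in AML KO mice.

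C1qa, C1qb and C1qc lie side by side on chromosome 4 of GRCm38, C1qb at chr4:136880129-136886187, C1qc at chr4:136889804-136893065 and C1qa at chr4:136895917-136898803, all on the minus strand. C1qa was at 5.68, 7.93 and 7.07 CPM in AML WT, at 7.92 and 5.8 CPM in AML HET and at 5.59, 14.9 and 6.25 CPM in AML KO mice. C1qb was at 7.65, 8.38 and 9.64 CPM in AML WT, at 9.18 and 6.37 CPM in AML HET and at 7.06, 16.7 and 6.07 CPM in AML KO mice. C1qc was at 5.98, 8.5 and 8.33 CPM in AML WT, at 7.89 and 6.56 CPM in AML HET and at 6.67, 13.6 and 7.07 CPM in AML KO mice. For all 3 chains, AML KO replicate 2 lay above the other 7 mice, and the other mice of the 3 groups overlapped. Against AML WT, the AML KO mice had log2 fold changes of 0.37 for C1qa, 0.21 for C1qb and 0.26 for C1qc, with 95% intervals of -0.44 to 1.17, -0.59 to 1.02 and -0.40 to 0.92, and none passed (adjusted p = 0.583, 0.758 and 0.633, edgeR). Without AML KO replicate 2 they were -0.22, -0.38 and -0.15. Within a mouse, the log2 ratio of C1qa to C1qb was between -0.447 and 0.0414 and that of C1qc to C1qb between -0.356 and 0.22, with overlapping groups (exact permutation test, AML KO against AML WT, two-sided p = 0.3 and 0.6, adjusted p = 0.343 and 0.6).

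With the C1q chains as broad macrophage products, Slc40a1, Vcam1, Cd5l and Spic were set against the mean of the chains within each mouse. Each of these genes had a higher fitted level in AML KO than in AML WT BM, as given above. Their ratios to the chains restate those differences in part and are no separate evidence. Hmox1, Adgre1 and Siglec1 were not set against the C1q chains. The log2 ratio of Slc40a1 to the C1q chains was 0.695, 0.0618 and 0.679 in AML WT, 1.04 and 1.24 in AML HET and 1.87, 0.891 and 1.71 in AML KO mice. That of Vcam1 was 0.955, 0.344 and 0.624 in AML WT, 1.01 and 1.43 in AML HET and 1.6, 1.09 and 1.7 in AML KO mice. That of Cd5l was -4.56, -4.33 and -4.27 in AML WT, -4.89 and -2.86 in AML HET and -2.19, -2.56 and -2.05 in AML KO mice. For all 3 genes, every AML KO mouse had a higher ratio than every AML WT mouse, AML KO replicate 2 included. The differences of the means were 1.01, 0.823 and 2.12 on the log2 scale (exact permutation test, two-sided p = 0.1 and adjusted p = 0.16 each). The ratio of Spic was higher by 0.843, but its groups overlapped (exact permutation test, two-sided p = 0.2, adjusted p = 0.267).

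**Figure D3:**
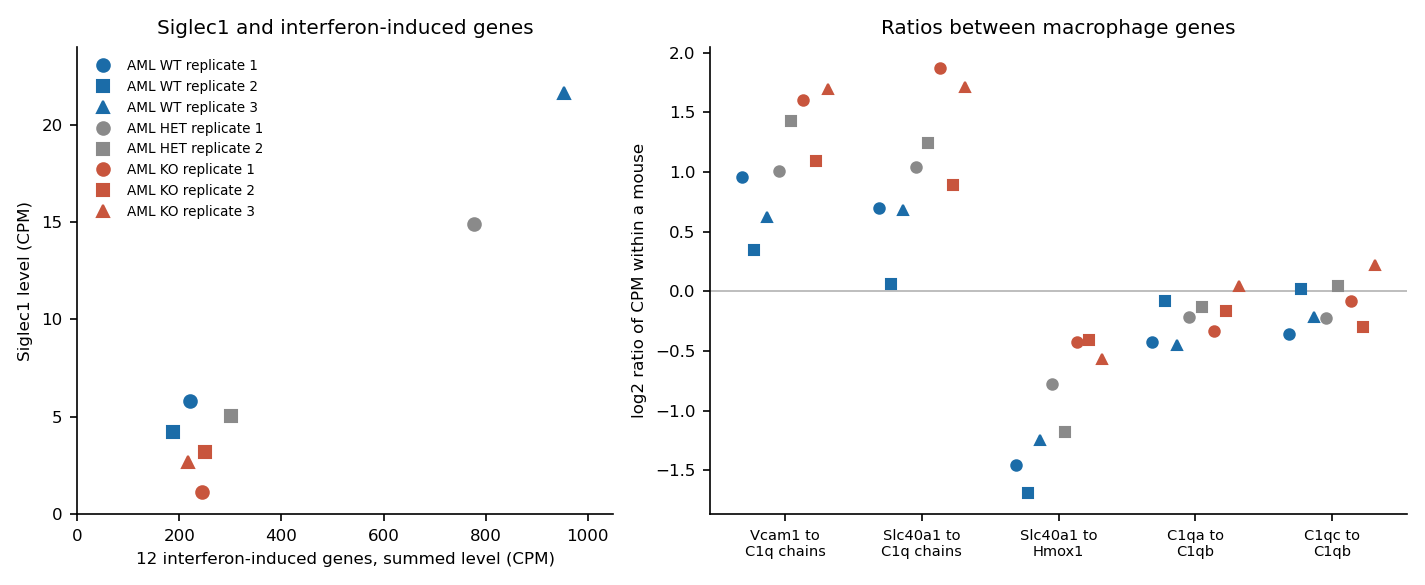
Left, Siglec1 (CPM) against the summed level (CPM) of 12 interferon-induced genes, 1 point per mouse, where AML WT replicate 3 and AML HET replicate 1 are high on both axes. Right, log2 ratios of CPM within a mouse, where Slc40a1 to Hmox1 and Slc40a1 or Vcam1 to the mean of the C1q chains are higher in every AML KO mouse than in every AML WT mouse, and the ratios between C1q chains overlap.

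Adgre1, at chr17:57358691-57483527, is the receptor most used to identify mouse macrophages. It was at 180.2, 118.4 and 99.2 CPM in AML WT, at 91.8 and 95.4 CPM in AML HET and at 60.1, 115.1 and 62.6 CPM in AML KO mice. Both AML HET mice lay below all AML WT mice, and AML KO replicate 2 lay within the AML WT range while the other 2 AML KO mice lay below it. AML KO differed from AML WT by a log2 fold change of -0.74 (standard error 0.281, 95% interval -1.37 to -0.11) and did not pass (adjusted p = 0.24, edgeR), but without AML KO replicate 2 it was -1.11 with an adjusted p of 0.0441, and without AML WT replicate 1 it was -0.47. Adgre1 made up 69.9%, 60.3% and 48.2% of the summed level of the 10 genes in AML WT, 46.5% and 51% in AML HET and 37.6%, 43.3% and 38.7% in AML KO mice. Its share was lower in every AML KO mouse than in every AML WT mouse, while the sum itself was 220 ± 33.2 CPM in AML WT and 196 ± 60.6 CPM in AML KO BM (SD, n = 3 each), with overlapping ranges. Set against Adgre1, Vcam1 had a log2 ratio of -3.86, -3.5 and -2.96 in AML WT, -2.45 and -2.5 in AML HET and -1.63, -1.85 and -1.58 in AML KO mice. No groups overlapped, and the AML KO mean was higher by 1.75 on the log2 scale (exact permutation test against AML WT, two-sided p = 0.1, adjusted p = 0.16). This ratio combines the opposite changes of Vcam1 and Adgre1 given above and is no separate evidence.

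Siglec1, a receptor of sinus and island macrophages, lies at chr2:131069220-131086765. It was at 5.8, 4.2 and 21.7 CPM in AML WT, at 14.9 and 5.03 CPM in AML HET and at 1.15, 3.17 and 2.68 CPM in AML KO mice. All AML KO mice lay below all others, but a single AML WT mouse, replicate 3, and a single AML HET mouse, replicate 1, were far above the mice of their own groups. AML KO differed from AML WT by a log2 fold change of -2.18 (standard error 0.678, 95% interval -3.70 to -0.66), which did not pass (adjusted p = 0.169, edgeR). Without AML WT replicate 3 it was -1.10, with an adjusted p of 0.255. The same 2 mice were high for interferon-induced genes, a list of 12 chosen after the values of Siglec1 were seen. The summed level of the 12 was 221, 186.7 and 954.2 CPM in AML WT, 776.5 and 301.7 CPM in AML HET and 244.7, 250.1 and 216.6 CPM in AML KO mice. None of the 12 was called between AML KO and AML WT and none was at 0 in a mouse. The part of interferon in the level of Siglec1 was not tested.

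Genes of resident macrophages outside the 10 were read from a list. Of 27 further genes of resident macrophages, 21 were listed in the table, none was called higher, 1 was called lower and the median log2 fold change was -0.10 in AML KO against AML WT BM. Without AML KO replicate 2 this median was -0.46 and 2 of the 21 were called, Mrc1 and the lysosomal protein Cd68, both lower (Cd68 was singled out after its values were seen). The gene that fell was Mrc1, the mannose receptor, at 168.6, 153.5 and 191.7 CPM in AML WT, 136.7 and 109.1 CPM in AML HET and 84.9, 100 and 96.8 CPM in AML KO mice. These groups did not overlap, and Mrc1 fell by 0.87 on the log2 scale (standard error 0.139, adjusted p = 0.0156, edgeR). The call was lost without AML WT replicate 2, AML KO replicate 1 or AML KO replicate 3, with an adjusted p of up to 0.0635. Fcgr1, a high-affinity receptor for antibodies, and Pparg, a nuclear receptor of lipid-handling macrophages, had log2 fold changes of -1.10 and -0.64 without passing (adjusted p = 0.0829 and 0.163, edgeR). Fcgr1 was highest in AML WT replicate 3 (80.5 CPM) and AML HET replicate 1 (67.1 CPM), the mice that were also high for Siglec1 and the interferon-induced genes. Without AML WT replicate 3 its log2 fold change was -0.74. The part of interferon in the level of Fcgr1 was not tested. The summed level of the 21 genes was 1524 to 1670 CPM in AML WT, 1362 to 1396 CPM in AML HET and 1056 to 1597 CPM in AML KO mice, with AML KO replicate 2 highest in its group.

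Of 18 further genes of the complement system, its receptors and its regulators, 16 were listed in the table. Of these, 1 was called higher and 1 lower, and the median log2 fold change was -0.05. This median was -0.22 without AML KO replicate 2 but 0.08 when AML KO replicate 1 was left out. C5ar1, the receptor for the fragment C5a, was at 2.53, 3.35 and 4.99 CPM in AML WT, at 5.82 and 5.26 CPM in AML HET and at 15.9, 13.2 and 11.3 CPM in AML KO mice, which was higher in AML KO than in AML WT by 1.90 on the log2 scale (standard error 0.268, adjusted p = 0.00988, edgeR). The call was lost without AML WT replicate 2. Which cells the RNA of C5ar1 came from was not tested. C3ar1, the receptor for C3a, had a log2 fold change of -1.25 and did not pass (adjusted p = 0.0828, edgeR), but without AML KO replicate 2 it was -1.65 with an adjusted p of 0.0189.

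Vcam1 and engulfment both involve partners on the erythroblast. All 14 genes fixed for erythroblast contact and engulfment were in the table, none was called higher and 1 lower, with a median log2 fold change of -0.14 in AML KO against AML WT BM (-0.05 without AML KO replicate 1 and -0.03 without replicate 3). The gene that fell was Axl, a receptor kinase for apoptotic cells that are coated by Gas6, with 82.4, 61.6 and 80.7 CPM in AML WT, 59.4 and 49.6 CPM in AML HET and 19.6, 37.1 and 20.5 CPM in AML KO mice (log2 fold change -1.54, standard error 0.248, adjusted p = 0.0156, edgeR). The call was lost without AML WT replicate 2 or AML KO replicate 3. Its ligand Gas6 and the erythroblast adhesion molecule Icam4 had log2 fold changes of 0.86 and 1.57, neither of which passed (adjusted p = 0.167 and 0.175, edgeR). Gas6 was at 0.46 without AML KO replicate 2 and Icam4 at 0.97 without AML KO replicate 1.

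Erythroid markers were higher in AML KO BM beside Vcam1, Cd5l and Slc40a1. Of 13 such markers 12 were listed in the table, and 11 were called higher in AML KO than in AML WT BM, with a median log2 fold change of 3.59. Their summed level was 240.3 to 355.5 CPM in AML WT, 597.1 to 2193 CPM in AML HET and 1528 to 5395 CPM in AML KO mice, and none was at 0 in a mouse. Slc4a1, the anion exchanger of the red cell membrane, had a log2 fold change of 3.88, Epb42, a membrane protein beside it, one of 3.92 and Alas2, the first enzyme of erythroid heme synthesis, one of 2.99 (adjusted p = 0.0102, 0.0156 and 0.0149, edgeR). With 1 AML WT mouse left out, the count of 11 became 1 (replicate 1) or 0 (replicate 2), and with 1 AML KO mouse left out it became 6 (replicate 1) or 7 (replicate 3). AML KO replicate 1 was the highest mouse for 12 of the 12 markers and for Spic, and AML KO replicate 2 was the highest mouse for Vcam1, Cd5l and Slc40a1. Scaling the libraries without these markers left Vcam1, Cd5l and Slc40a1 called, at log2 fold changes of 1.02, 2.31 and 1.17. That setting leaves the 12 markers out of the scaling factors only, so that it cannot show which cells the RNA came from. The part of the red cell precursors in the levels of the macrophage genes was not tested.

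**Figure D4:**
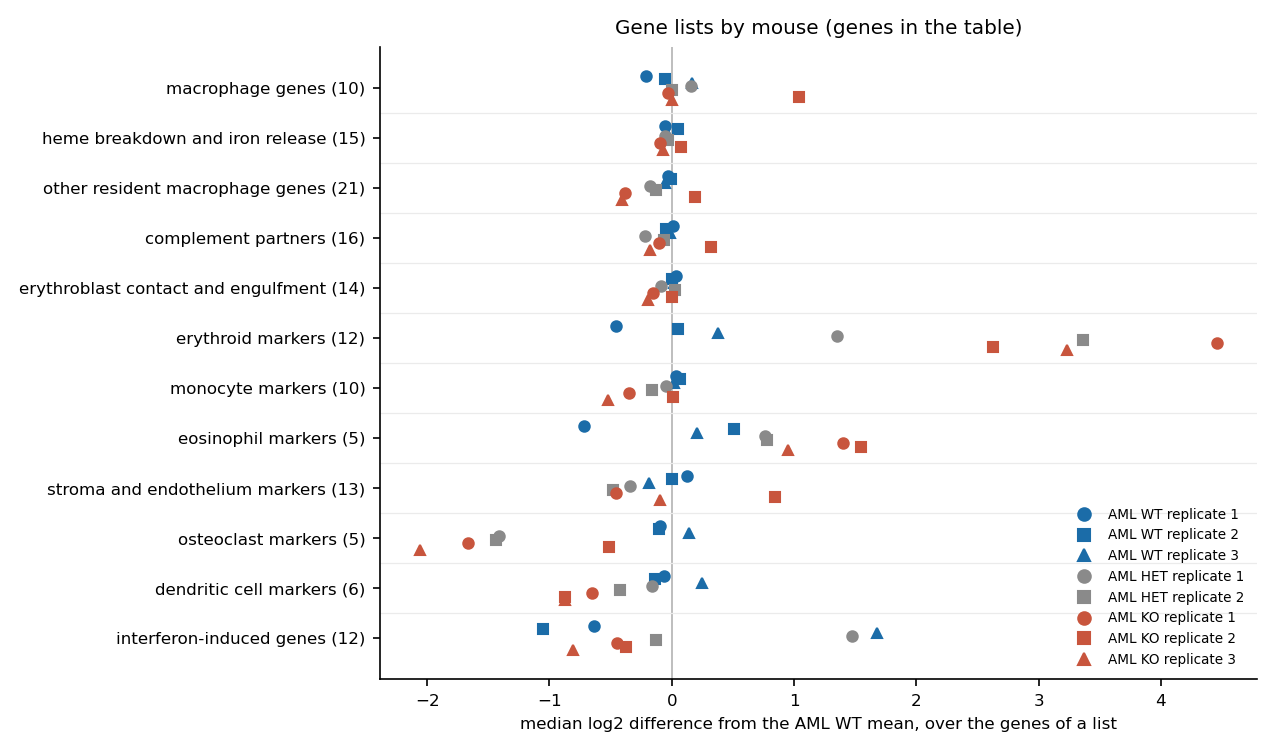
Median log2 difference from the AML WT mean (x axis) over the genes of each list, with 1 point per mouse and the number of genes in the table in brackets. The 10 macrophage genes are near 0 in 7 mice and at 1.04 in AML KO replicate 2, while erythroid markers are at 2.63 to 4.46 in the AML KO mice.

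Other cells that carry Adgre1 or other genes of the group were read from marker lists as well. Of 10 monocyte markers, all in the table, none was called between AML KO and AML WT, and the median log2 fold change was -0.30. By fitted level, 9 were lower and 1 higher in AML KO, and 4 had an unadjusted p under 0.05 (edgeR), against 17.7% of all genes. Their summed level, most of it from Lyz2, was 16040 to 18880 CPM in AML WT and 11550 to 18190 CPM in AML KO mice. Of 9 eosinophil markers 5 were in the table and 2 were called higher, the granule proteins Prg2 (log2 fold change 3.19, adjusted p = 0.00698, edgeR) and Epx (3.26, adjusted p = 0.0247). Ear2, an eosinophil ribonuclease, had a log2 fold change of -0.94 and did not pass (adjusted p = 0.0707, edgeR), with 42.3 to 77.3 CPM in AML WT and 26.2 to 37.7 CPM in AML KO mice, which did not overlap, and it passed without AML WT replicate 1 (adjusted p = 0.0204). Siglecf, an eosinophil surface receptor, had one of 0.18 (adjusted p = 0.635). The 5 markers had a summed level of 53.8 to 91.4 CPM in AML WT, most of it from Ear2, and 63.3 to 92.1 CPM in AML KO mice. Of 8 osteoclast markers 5 were in the table. Acp5 and Ctsk, enzymes of bone resorption, fell by 1.66 and 2.25 on the log2 scale (adjusted p = 0.0102 and 0.0131, edgeR). Mmp9, a protease that neutrophils also store, rose by 1.12 (adjusted p = 0.046, edgeR). The median log2 fold change of these 5 markers was -1.09. Their summed level was 184.9 to 239.8 CPM in AML WT and 125.9 to 218.2 CPM in AML KO mice, and Mmp9 made up most of it in AML KO. With 1 mouse left out, the call of Prg2 held in 8 of 8 fits, those of Acp5 and Ctsk were lost without AML WT replicate 2, that of Epx held only without AML WT replicate 1 or AML KO replicate 2, and that of Mmp9 only without AML WT replicate 3. Of 6 dendritic cell markers, all in the table, none was called, the median was -0.86 and the summed level was 179.8 to 202.4 CPM in AML WT and 135.5 to 164.8 CPM in AML KO mice. None of these markers was at 0 in a mouse, and their part in the levels of the macrophage genes was not tested.

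The loss of 1 Gab2 allele was compared in the same fit. Between AML HET and AML WT BM none of the 10 genes had an adjusted p under 0.05, against 0.0225% of all genes, and 2 of the 10, Slc40a1 and Vcam1, had an unadjusted p under 0.05, against 2.47% of all genes. The ranges of the groups did not overlap for 4 of the 10, with Slc40a1, Vcam1 and Spic higher and Adgre1 lower in AML HET, against 18.1% of all genes. The log2 fold change was 0.57 for Slc40a1 (95% interval 0.10 to 1.04) and 0.50 for Vcam1 (95% interval 0.003 to 1.00), both with an adjusted p of 0.99 in edgeR's test. That of Spic was 0.55 (95% interval -0.20 to 1.31), that of Cd5l 0.64 (-0.58 to 1.87) and that of Adgre1 -0.50 (-1.21 to 0.21), which was -0.21 without AML WT replicate 1. The other 5 genes had log2 fold changes between -0.14 and 0.10.

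Between AML KO and AML HET BM, which differ by the second allele, none of the 10 genes passed the threshold, nor did any other gene (0%), although 5.86% of all genes had an unadjusted p under 0.05. Of the 10, 4 had such a p, with Cd5l, Slc40a1 and Vcam1 higher and Siglec1 lower in AML KO. These 4 also had ranges that did not overlap, against 24.2% of all genes. The log2 fold change was 1.67 for Cd5l (95% interval 0.49 to 2.84), 0.60 for Slc40a1 (0.12 to 1.08), 0.52 for Vcam1 (0.01 to 1.03) and -2.09 for Siglec1 (-3.72 to -0.47), with adjusted p of 0.735, 0.759, 0.833 and 0.759 in edgeR's test. Vcam1 was at 0.26 without AML KO replicate 2. Siglec1 was at -1.11 without AML HET replicate 1 and at -2.68 without AML HET replicate 2. The values of Cd5l for the first and the second allele rested on the 2 AML HET mice, since they were 1.22 and 1.09 without AML HET replicate 1 and -0.38 and 2.69 without AML HET replicate 2. The comparisons share mice, and the difference between these steps was not tested.

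**Figure D5:**
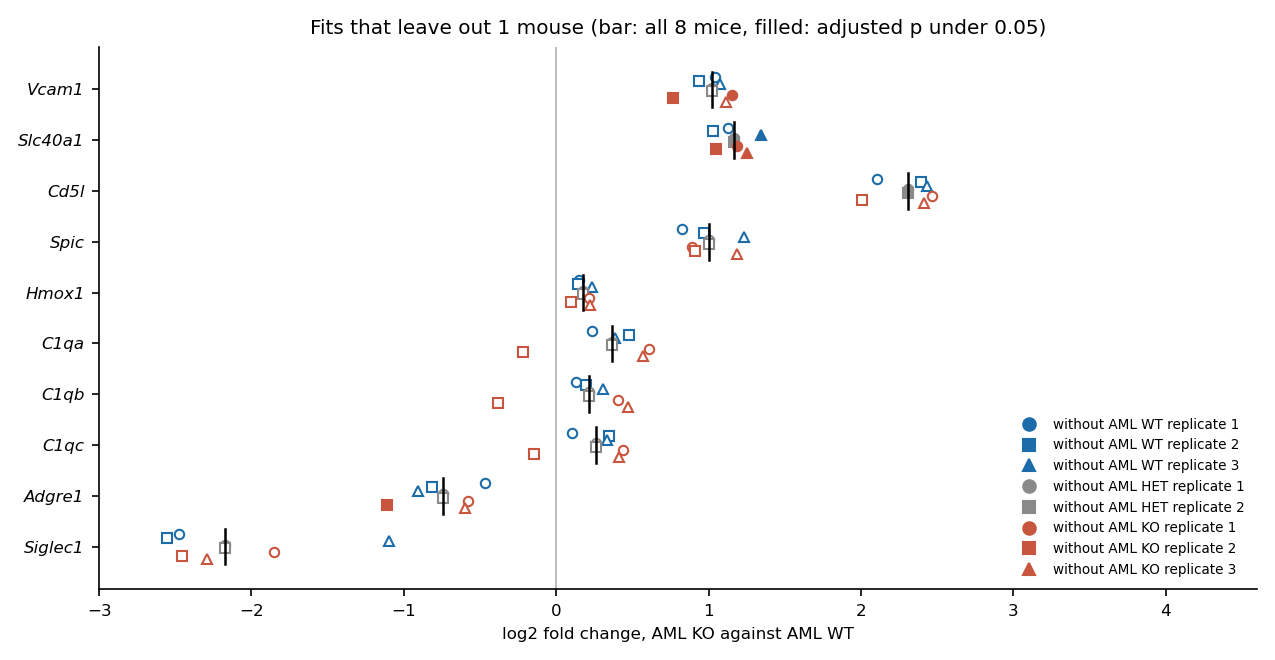
Log2 fold change of AML KO against AML WT (x axis) of each of the 10 macrophage genes in 8 fits that each left out 1 mouse, filled where the adjusted p was under 0.05, with a bar at the value of the fit with all 8 mice. Slc40a1 stays filled in 6 of 8 fits, Vcam1 and Cd5l in 2 each, and the C1q chains change sign without AML KO replicate 2.

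Genes with the most similar pattern were found by the root mean square difference between log2 CPM profiles over the 8 mice, each centred on its own mean, with the 10 genes themselves left out. Nearest to Slc40a1 were Zfp651 (0.139), Cd177 (0.154) and Nsg1 (0.186). Nearest to Vcam1 were Klf11 (0.128), Fam167b (0.167) and Kcng2 (0.173), and nearest to Spic were Klrb1c (0.11), Rab13 (0.143) and Thy1 (0.175). Cd5l had no profile as near, with Clu at 0.275, Slamf1 at 0.347 and Tinagl1 at 0.362 on this log2 scale. Nearest to the mean of the C1q chains were Gm10177 (0.171), Cx3cl1 (0.18) and Pmp22 (0.182).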

How the data were processed

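RNA of whole BM from 8 mice (3 AML WT, 2 AML HET and 3 AML KO, 1 library each) was sequenced, and the authors deposited raw read counts per gene, without normalization, for 13305 genes by Ensembl identifier. The submitters' processing notes name Trimmomatic 0.36, STAR 2.5.2b and the build mm10, while the counter and its annotation are not given in the sources used here. No gene had fewer than 106 counts over the 8 mice. Symbols and positions were taken from GENCODE M21 (GRCm38), which held 13266 of the identifiers, and promoter sequences from RefSeq (GRCm38.p6).

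Counts were fitted with edgeR 4.0.16 in R 4.3.3 (TMM, filterByExpr, which removed none of the genes, and the robust quasi-likelihood test) over all 8 mice, with no term but genotype. A gene was called at a Benjamini-Hochberg adjusted p under 0.05, adjusted across the table. Each standard error comes from that test's F statistic. CPM used the TMM library sizes. Libraries held 28009258 to 39266815 counts (median 32049876). Replicates differed by far more than sampling noise, so that the spread between mice limits most values, and counting error as well that of Cd5l. Poisson intervals cover counting error only. The labels number separate mice. Ratios within a mouse were compared by exact permutation tests.

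The 10 genes and all lists were chosen with earlier results of these data known. Named from each list were the 3 genes with the smallest p between AML KO and AML WT, not all of which are reported here, and the interferon list was added after the values were seen. Alternatives were DESeq2 1.42.0, limma-voom (limma 3.58.1), other size factors (RLE, upper quartile, TMM without erythroid markers), other filters, a replicate block, only the groups compared and each mouse left out. Figures were drawn with matplotlib 3.10.9. The fit was tested on simulated data.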

Additional observations from a re-analysis of the deposited data

How the results depend on the processing

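Over RLE and upper-quartile factors, scaling without erythroid markers, both other filters, DESeq2 and limma-voom, 3 of the 10 genes passed between AML KO and AML WT, and none in the other comparisons. With only AML WT and AML KO mice in the fit 2 passed. The labels number the mice of each group, but same-numbered mice did not deviate together (residual correlations between AML WT and AML KO of -0.509, -0.109 and -0.131, of AML HET 0.076 and 0.289 with AML WT and -0.138 and -0.04 with AML KO), so that the replicate block stands here only. With that replicate block, 0 of the 10 passed between AML KO and AML WT and 19 of all genes, against 278 without it, 0 of all genes passed between AML HET and AML WT, and 0 each of the other resident macrophage, complement, contact and engulfment, erythroid, eosinophil and osteoclast lists. The block gave Siglec1 a log2 fold change of 0.65 between AML HET and AML WT, in place of -0.08, and limma-voom one of 0.093. Upper-quartile factors gave C1qa one of 0.014, in place of -0.01.

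DESeq2 called 730 genes in AML KO against AML WT, 59 in AML HET against AML WT and 77 in AML KO against AML HET, and, between AML KO and AML WT, 1 gene each of the heme and monocyte lists, 2 each of the other macrophage, stroma and dendritic lists, 3 of the contact list and 4 each of the complement and eosinophil lists. Between AML HET and AML WT, limma-voom called 1 gene and the fit with only those groups 5, in place of 3. Between AML KO and AML HET the fit with only those groups called 3, in place of 0. Eosinophil markers called fell to 1 with only AML WT and AML KO mice. The cause of these shifts was not tested.

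With each mouse left out in turn (8 fits), 0 to 3 of the 10 genes passed between AML KO and AML WT: 0 without AML WT replicate 1 or 2, 1 without AML WT replicate 3 or AML KO replicate 3, 3 without AML KO replicate 2 (Adgre1 in place of Cd5l), and 2 in the other 3 fits. Genes called over the whole table ranged from 40 to 370 in AML KO against AML WT (40 without AML WT replicate 2), from 1 to 5 in AML HET against AML WT and from 0 to 4 in AML KO against AML HET. Called genes ranged from 0 to 2 in the other macrophage list, 0 to 3 in the complement and osteoclast lists, 0 to 1 in the contact and dendritic lists, 0 to 12 in the erythroid list and 1 to 3 in the eosinophil list. The median log2 fold change of the 10 genes was -0.026 to 0.53, their summed CPM differed by -59.2 to -5.24, that of the 9 genes other than Adgre1 by 12 to 38.7, and the log2 ratio of Spic to the C1q chains by 0.526 to 1.16. Log2 fold changes that changed sign, none of them past the threshold, were C1qa (-0.22 to 0.61), C1qb (-0.38 to 0.47), C1qc (-0.15 to 0.44) and Maf (-0.21 to 0.11) between AML KO and AML WT. Between AML HET and AML WT they were C1qa (-0.25 to 0.20), C1qb (-0.42 to 0.10), C1qc (-0.22 to 0.055), Cd5l (-0.38 to 1.22) and Siglec1 (-1.07 to 1.00). Between AML KO and AML HET they were C1qa (-0.22 to 0.62), C1qb (-0.25 to 0.64), C1qc (-0.079 to 0.52) and Hmox1 (-0.013 to 0.17). With 2 or 3 mice in a group, an unpassed threshold does not show that levels were alike.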
